A study of Mus musculus with 6 samples.

Results

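The chaperones that fold proteins in the cytosol and in mitochondria are described here in mouse MLL-AF9 leukemia cells that lack or carry a working Alox5 gene. The set was defined by gene symbol and holds 48 of the 46983 genes in the count table: the HSP70 and HSP110 proteins, their DNAJ partners and co-chaperones, HSP90 and its co-chaperones, the mitochondrial chaperones, the heat shock factors, the CCT ring and prefoldin. Of 46 members tested, 27 were lower in Alox5-/- cells (58.7%, against 27.0% of all tested genes), 3 were higher (6.52%, against 26.8%) and 16 were not called. The 27 include Hspa1b, which passed the filter on low counts through its WT libraries alone and so had to differ. Without it 26 of 45 were lower (57.8%). Hspa8, the main HSP70 of unstressed cells, was 3.12-fold lower, Hsph1 was 1.93-fold lower, and Dnaja1, Dnajb1, Hsp90aa1, Hspd1 and Hspe1 were 1.36-fold to 1.46-fold lower. The transcript of Hsf1, whose protein raises many chaperone genes under protein stress, did not pass the test. Hspa9, the HSP70 of mitochondria, was 1.19-fold higher.

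MLL-AF9 is a fusion oncogene of human acute leukemia, and Alox5 encodes 5-lipoxygenase, the enzyme that begins leukotriene synthesis. Per the labels, donors were C57BL/6J WT or C57BL/6J Alox5-/- mice, whose Lin-Sca-1+c-Kit+ bone marrow cells were sorted by flow cytometry and transduced with an MLL-AF9 retrovirus. The design text adds that GFP+ cells went into irradiated C57BL/6J recipients, so that the host and the oncogene are shared by both groups, and all samples were untreated. Each genotype has 3 libraries of poly-A RNA, called biological replicates, and the labels give 1 cell line name per genotype without saying whether the replicates are separate transductions or animals. P-values therefore measure the spread between these samples, which may be technical. The age of the animals is not given in the labels.

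A chaperone binds unfolded stretches of a protein and keeps them from clumping until they fold. HSP70 proteins do this in cycles driven by ATP: DNAJ proteins bring the client and start hydrolysis, HSP110 and BAG proteins release the nucleotide, and many clients then pass to HSP90 through the adaptor Stip1. The CCT ring folds actin and tubulin handed over by prefoldin, and Hspd1 with its lid Hspe1 forms the folding chamber of the mitochondrial matrix. Under protein stress the transcription factor HSF1 binds inverted GAA units in the promoters of many of these genes, and several oncogenic kinases are HSP90 clients.

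The libraries held 28985597 to 38695948 gene counts, which were 60.0 to 60.9% of all reads, and 24.4 to 24.8% of reads aligned to more than one place and were not counted. Expression is given as CPM, read counts brought to a common library size by TMM scaling, and a count of 0 allows up to 0.0786 to 0.103 CPM, counting error only. Alox5 itself stood at 65.6, 62.1 and 64.9 CPM in the Alox5-/- libraries and at 102, 106 and 106 CPM in WT, so its message was lower but detected. Alox5-/- replicate 2 stood somewhat apart: chi-square per degree of freedom against the other Alox5-/- libraries was 9.06 and 10.2, while other pairs within a group lay between 2.18 and 5.09, and pairs across groups between 35.5 and 50.7. Of the markers in the sort, Kit averaged 136 ± 2.73 CPM for Alox5-/- and 160 ± 3.09 CPM for WT, while Ly6a, which encodes Sca-1, was low at 0.763 ± 0.158 and 1.06 ± 0.169 CPM (SD, n = 3 each).

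Promoter sequences are shown first for the members whose inverted GAA units the results below refer to. Each window runs from 250 bases before to 50 bases after a RefSeq start site (GRCm38.p6, the same build as mm10), reads 5′ to 3′ on the gene's own strand, and has in capitals the units GAANNTTC and TTCNNGAA, which overlap where units alternate. Hspe1 is shown for a run of 4 alternating units, Chordc1 for a run of 5 across its start site, Hsph1 for a run of 3 and a separate pair, Dnaja1 and Hspa1b for a single pair, and Dnajb6 as a gene with 3 units whose message was not called.
Hspe1 (chr1:55087898-55088197, plus strand): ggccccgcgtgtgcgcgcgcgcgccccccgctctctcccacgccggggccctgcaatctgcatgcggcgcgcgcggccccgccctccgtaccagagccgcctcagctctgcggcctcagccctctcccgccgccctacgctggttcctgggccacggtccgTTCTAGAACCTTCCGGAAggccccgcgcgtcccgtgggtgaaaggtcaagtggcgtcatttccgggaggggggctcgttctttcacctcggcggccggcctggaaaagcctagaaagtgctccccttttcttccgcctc
Chordc1 (chr9:18292017-18292316, plus strand): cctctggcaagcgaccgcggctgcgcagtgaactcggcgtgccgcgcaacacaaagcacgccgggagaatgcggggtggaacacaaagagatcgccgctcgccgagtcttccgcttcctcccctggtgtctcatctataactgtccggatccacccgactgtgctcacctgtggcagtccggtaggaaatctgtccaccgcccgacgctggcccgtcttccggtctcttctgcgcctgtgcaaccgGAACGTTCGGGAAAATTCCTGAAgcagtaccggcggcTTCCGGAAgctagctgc
Hsph1 (chr5:149636287-149636586, minus strand): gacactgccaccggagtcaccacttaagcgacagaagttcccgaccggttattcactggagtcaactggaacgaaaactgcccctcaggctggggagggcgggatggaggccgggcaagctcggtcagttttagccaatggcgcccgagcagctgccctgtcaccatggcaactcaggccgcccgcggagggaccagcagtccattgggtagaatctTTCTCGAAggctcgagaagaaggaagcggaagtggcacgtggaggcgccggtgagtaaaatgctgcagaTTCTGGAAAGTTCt
Dnaja1 (chr4:40722218-40722517, plus strand): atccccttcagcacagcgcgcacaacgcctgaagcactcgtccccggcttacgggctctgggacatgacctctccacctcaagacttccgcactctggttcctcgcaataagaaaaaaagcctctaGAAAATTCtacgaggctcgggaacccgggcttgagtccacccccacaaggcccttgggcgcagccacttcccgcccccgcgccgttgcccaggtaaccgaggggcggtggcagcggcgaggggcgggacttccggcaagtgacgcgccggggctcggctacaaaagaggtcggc
Hspa1b (chr17:34959189-34959488, minus strand): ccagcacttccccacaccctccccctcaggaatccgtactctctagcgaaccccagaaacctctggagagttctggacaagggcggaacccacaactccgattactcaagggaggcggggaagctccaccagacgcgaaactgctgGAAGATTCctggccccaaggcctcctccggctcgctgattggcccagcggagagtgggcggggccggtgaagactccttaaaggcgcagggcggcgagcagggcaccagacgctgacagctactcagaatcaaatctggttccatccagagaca
Dnajb6 (chr5:29735648-29735947, plus strand): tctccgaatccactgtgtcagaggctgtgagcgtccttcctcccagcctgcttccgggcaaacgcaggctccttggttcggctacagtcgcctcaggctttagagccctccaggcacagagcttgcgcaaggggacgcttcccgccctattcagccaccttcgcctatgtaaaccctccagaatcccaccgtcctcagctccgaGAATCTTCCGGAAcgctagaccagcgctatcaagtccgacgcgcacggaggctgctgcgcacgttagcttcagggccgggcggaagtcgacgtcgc
The Hspe1 run begins 89 bases before the start site. The same run lies in a listed window of Hspd1 on the other strand, since the 2 windows share 285 bases.

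Of the 48 members, 46 passed the filter on low counts, and Hspa1a and Hspb1 did not. Adjusted p-values come from edgeR's quasi-likelihood test with Benjamini-Hochberg adjustment over all 13705 tested genes, and a gene is called where the adjusted p is under 0.05. By that rule 27 members were lower in Alox5-/- cells (58.7% of those tested, against 27.0% of all tested genes), 3 were higher (6.52%, against 26.8%) and 16 were not called. Of these calls, Hspa1b passed the filter through its WT libraries alone and had to differ. In all, 65.2% of tested members were called, against 53.8% of all genes. Lower calls of at least 1.3-fold numbered 8 (17.4%, against 7.48% of all genes), and no member was higher by that much, against 12.6% of all genes. At 1.5-fold the count was 3 (6.52%, against 3.94%). Without Hspa1b, 26 of 45 were lower (57.8%), 7 by at least 1.3-fold (15.6%) and 2 by at least 1.5-fold (4.44%, near the share of all genes). The median log2 fold change was -0.15 over the tested members and 9.97e-05 over all tested genes. For 33 members the values of the 2 groups were fully separate (71.7%, against 60.0% of all genes). Hspa1b, which had to differ, is among the 33. Most of the differences were small, since the biological coefficient of variation between libraries was 3.70% and small shifts passed the test. The sum over all members was 14431 to 14592 CPM in the Alox5-/- libraries and 16777 to 17368 CPM in WT. In bulk RNA a smaller number of cells of some kind and less message per cell cannot be told apart.

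**Figure D1:**
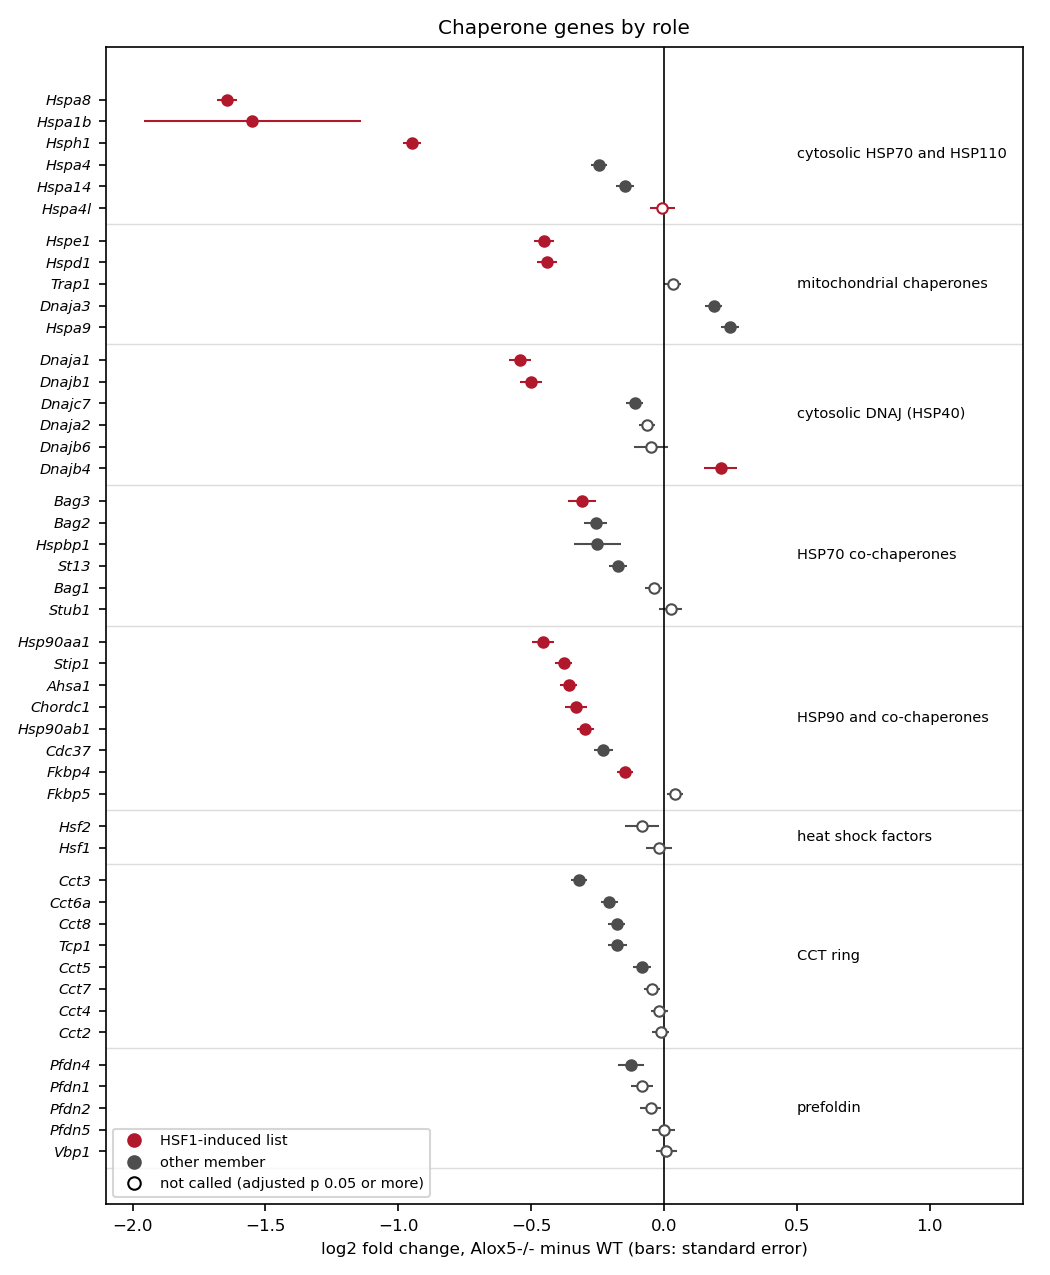
Log2 fold change of the 46 tested members (x axis, Alox5-/- minus WT, bars are standard errors) in rows by role; red points are the HSF1-induced list and open points were not called. Hspa8, Hspa1b and Hsph1 lie farthest to the left, and Hspa9, Dnaja3 and Dnajb4 are the 3 called points right of 0.

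A list of 18 members known to be induced by HSF1, from textbook knowledge, was set beside the other 30. It was drawn up with earlier results of these data known, so the split is a description only. The list holds Hspa8, Hspa1a, Hspa1b, Hspa4l, Hsph1, Hsp90aa1, Hsp90ab1, Dnaja1, Dnajb1, Dnajb4, Bag3, Hspb1, Chordc1, Stip1, Fkbp4, Ahsa1, Hspd1 and Hspe1. Of its 16 tested genes, 14 were lower (87.5%, against 27.0% of all tested genes), Dnajb4 was higher and Hspa4l was not called; their median was -0.41. Without Hspa1b 13 of 15 were lower (86.7%), with a median of -0.38. Among the 30 others, 13 were lower (43.3%, against the same 27.0%), Hspa9 and Dnaja3 were higher and 15 were not called, with a median of -0.07. The summed level of the HSF1-induced list was 6060 to 6275 CPM in Alox5-/- libraries and 8079 to 8363 CPM in WT, while the others summed to 8317 to 8410 and 8687 to 9006 CPM. The ranges of the groups were separate for both sums. Much of the gap in the list's sum came from Hspa8 and Hsp90ab1, which are constitutive in most cells as well as raised by HSF1: they made up 1398 of 2037 CPM, and without them the list summed to 2141 to 2183 against 2737 to 2891 CPM.

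**Figure D2:**
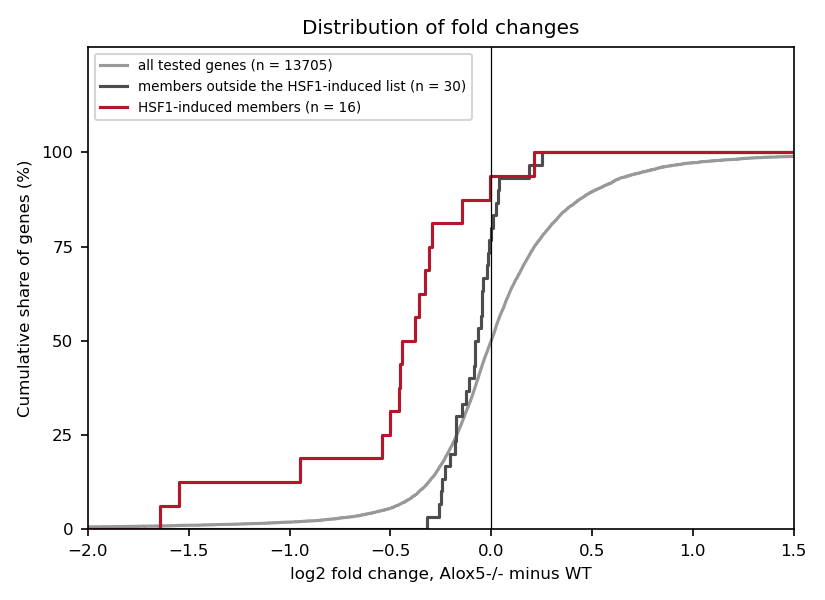
Cumulative share of genes (y axis, %) by log2 fold change (x axis, shown from -2 to 1.5) for all 13705 tested genes, the 16 tested HSF1-induced members and the 30 other members. The curve of the HSF1-induced members lies to the left, with a median of -0.41, and the curve of the other members passes its median at -0.07.

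HSP70 and HSP110 proteins carried the largest changes: of 6 tested members 5 were lower, or 4 of 5 without Hspa1b, and 1 was not called. Of all tested genes, 27.0% were lower. Hspa8 (ENSMUSG00000015656, chr9:40800984-40810087, plus strand, mm10) encodes HSC70, the constitutive cytosolic HSP70 that also uncoats clathrin and serves chaperone-mediated autophagy. It stood at 273, 253 and 254 CPM in the Alox5-/- libraries and at 780, 823 and 832 CPM in WT, from raw counts of 8499, 7400 and 7541 against 23283, 24442 and 31751. Every Alox5-/- library lay far below the lowest WT library. The means were 259.8 ± 11.2 and 811 ± 28 CPM (SD, n = 3 each), a difference of -1.64 in log2 units (edgeR adjusted p = 1.62e-13, SE 0.04), and 98.4% of tested genes changed by less.

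Hspa8 has processed pseudogenes, intronless copies of its message, and 73.2% of the 50-base stretches of its longest coding transcript occur in transcripts of other genes. The rows of those other genes moved alike: together they held 9137 counts in Alox5-/- and 29598 in WT, and the copy Gm15459 held 7287 of the former and 23730 of the latter. With the counts of 6 near-identical genes added to Hspa8, the log2 fold change was -1.62, so the difference was nearly as large with the copies pooled.

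Hsph1 (chr5:149614287-149636376, minus strand) encodes HSP110, the nucleotide release factor of HSP70 that also helps it dissolve aggregates. Its levels were 78.3, 76.2 and 77.9 CPM in Alox5-/- and 151, 152 and 146 CPM in WT. The groups were far apart beside a spread of a few CPM, with a difference of -0.95 in log2 units (edgeR adjusted p = 1.35e-11, SE 0.03). Its relative Hspa4 (APG-2), another HSP110, fell by only 0.25 on the log2 scale (SE 0.03, edgeR adjusted p = 9.45e-06). Hspa14, a ribosome-associated HSP70, fell by 0.15 (SE 0.03, edgeR adjusted p = 0.00134). Hspa4l, a further HSP110, was at 54.6, 50.9 and 50.4 CPM in the 3 Alox5-/- libraries and 52.1, 55.1 and 49.6 in WT, so its groups overlapped. Its 95% interval ran from -0.11 to 0.10.

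The strictly stress-inducible HSP70 genes, Hspa1a and Hspa1b, were barely expressed. Hspa1b had raw counts of 3, 7 and 3 in Alox5-/- and 14, 13 and 15 in WT, with a difference of -1.55 in log2 units (edgeR adjusted p = 0.00482, SE 0.41). It passed the filter through its WT libraries alone, so it had to differ and its p-value adds no support. Hspa1a had counts of 2, 0 and 1 against 4, 7 and 6 and was not tested. These neighbours on chromosome 17, with start sites 12918 bases apart, share most of their sequence (62.3% of the 50-base stretches of Hspa1b occur elsewhere), so their separate counts are uncertain. With Hspa1a and Hspa1l added, the log2 fold change was -1.39 (edgeR adjusted p = 0.00153). That sum holds the same Hspa1b counts, so the same limit applies.

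DNAJ proteins, also called HSP40, bring clients to HSP70: 3 of 6 were lower (50%, against 27.0% of all tested genes), 1 was higher and 2 were not called. Dnaja1, a farnesylated partner of Hspa8, was at 47.5, 46.4 and 47.4 CPM in the 3 Alox5-/- libraries and 67.0, 71.6 and 67.2 CPM in WT, a difference of -0.54 in log2 units (edgeR adjusted p = 3.9e-08, SE 0.04). Dnajb1, the classic heat-inducible HSP40, was at 43.1, 42.8 and 45.4 CPM against 62.7, 61.7 and 61.3 CPM, a difference of -0.50 in log2 units (edgeR adjusted p = 8.77e-08, SE 0.04). Both genes were lower in each Alox5-/- library than in any WT library. Dnajb4 is close to Dnajb1 in sequence and also heat-inducible, yet it rose: 18.9, 17.4 and 18.3 CPM against 15.7, 16.3 and 15.2, a difference of 0.21 in log2 units (edgeR adjusted p = 0.00862, SE 0.06).

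The remaining DNAJ members moved little. Dnajc7, which links HSP70 and HSP90, fell by 0.11 on the log2 scale (edgeR adjusted p = 0.00919). That call was lost without Alox5-/- replicate 3 (edgeR adjusted p = 0.0523) and with scaling by total gene counts (0.0941, over a range of 0.00697 to 0.0941 in 15 alternatives). Dnaja2, a second partner of Hspa8, had a log2 fold change of -0.06 and a 95% interval from -0.13 to 0.00. Dnajb6, which suppresses aggregation of polyglutamine proteins, was at 20.8, 22.5 and 20.6 CPM against 21.3, 23.7 and 21.0, with overlapping groups and an interval from -0.18 to 0.09.

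Co-chaperones that act on the HSP70 nucleotide cycle were lower in 4 of 6 cases (66.7%, against 27.0% of all tested genes). Bag3, the heat-inducible nucleotide exchange factor that steers clients to autophagy, was at 29.2, 30.8 and 31.1 CPM in the 3 Alox5-/- libraries and 39.3, 35.2 and 38.4 in WT, a difference of -0.31 in log2 units (edgeR adjusted p = 0.000172, SE 0.05). Bag2, an inhibitor of the ubiquitin ligase Stub1, fell by 0.26 on the log2 scale (SE 0.04, edgeR adjusted p = 0.00012). St13, known as HIP, which holds HSP70 in its client-bound state, fell by 0.17 (SE 0.03, edgeR adjusted p = 0.000442). The groups did not overlap for these genes.

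Hspbp1, a further exchange factor, ranged from 21.5 to 28.4 CPM in Alox5-/- and from 26.4 to 32.1 CPM in WT. Its groups overlapped, and its fall of 0.25 (SE 0.09, edgeR adjusted p = 0.0263) was lost in 6 of 15 alternatives: without Alox5-/- replicate 1 (0.142), Alox5-/- replicate 3 (0.0694), WT replicate 1 (0.123) or WT replicate 3 (0.0708), in the robust fit (0.0987) and with total gene counts (0.0528). The alternatives gave adjusted p-values from 0.00025 to 0.142. Bag1 had a log2 fold change of -0.04 and an interval from -0.11 to 0.03. Stub1, the ubiquitin ligase CHIP that sends clients of HSP70 and HSP90 to the proteasome, was at 109, 115 and 101 CPM against 107, 106 and 106. Its interval ran from -0.07 to 0.11, and 42.3% of its exon bases overlap Jmjd8 on the opposite strand, where reads may be shared if counting ignored strand.

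HSP90 and its helpers were lower in 7 of 8 cases (87.5%, against 27.0% of all tested genes), and the group's median log2 fold change was -0.31. Hsp90aa1, the stress-inducible cytosolic HSP90, was at 440.2, 429.8 and 423 CPM in the 3 Alox5-/- libraries and 576, 637 and 562 CPM in WT, a difference of -0.46 in log2 units (edgeR adjusted p = 3.09e-07, SE 0.04). Hsp90ab1, the constitutive form, was at 3819, 3642 and 3693 CPM against 4521, 4649 and 4523 CPM, a difference of -0.30 in log2 units (edgeR adjusted p = 1.66e-06, SE 0.03). The 2 HSP90 genes were thus lower in every Alox5-/- library, and the abundant Hsp90ab1 accounts for the largest drop in CPM. Hsp90aa1 shares 58.5% of its 50-base stretches with pseudogenes and other genes, and with 3 of those added the log2 fold change was again -0.46.

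Of the 6 adaptors and regulators of the HSP90 cycle, 5 were lower, by amounts that ranged widely. Stip1 (HOP), which joins HSP70 to HSP90, averaged 245 ± 7.65 CPM against 318 ± 2.13 CPM in WT (SD, n = 3 each), a difference of -0.38 in log2 units (edgeR adjusted p = 1.57e-07, SE 0.03). Ahsa1, which speeds the ATPase of HSP90, fell by 0.36 (edgeR adjusted p = 2.2e-07), and Chordc1, a zinc-binding partner of HSP90, by 0.33 (edgeR adjusted p = 9.66e-06). Cdc37, which loads kinases onto HSP90, fell by 0.23 (edgeR adjusted p = 5.98e-05), and Fkbp4, an immunophilin of the steroid receptor complexes, by 0.15 (edgeR adjusted p = 0.000556). Fkbp5, the related immunophilin known for its induction by glucocorticoids, was at 253, 249.9 and 252 CPM against 249, 243 and 242, with a log2 fold change of 0.04 and an interval from -0.02 to 0.10. It was called higher only with scaling by total gene counts (edgeR adjusted p = 0.0321, over a range of 0.0321 to 0.482 in 15 alternatives).

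**Figure D3:**
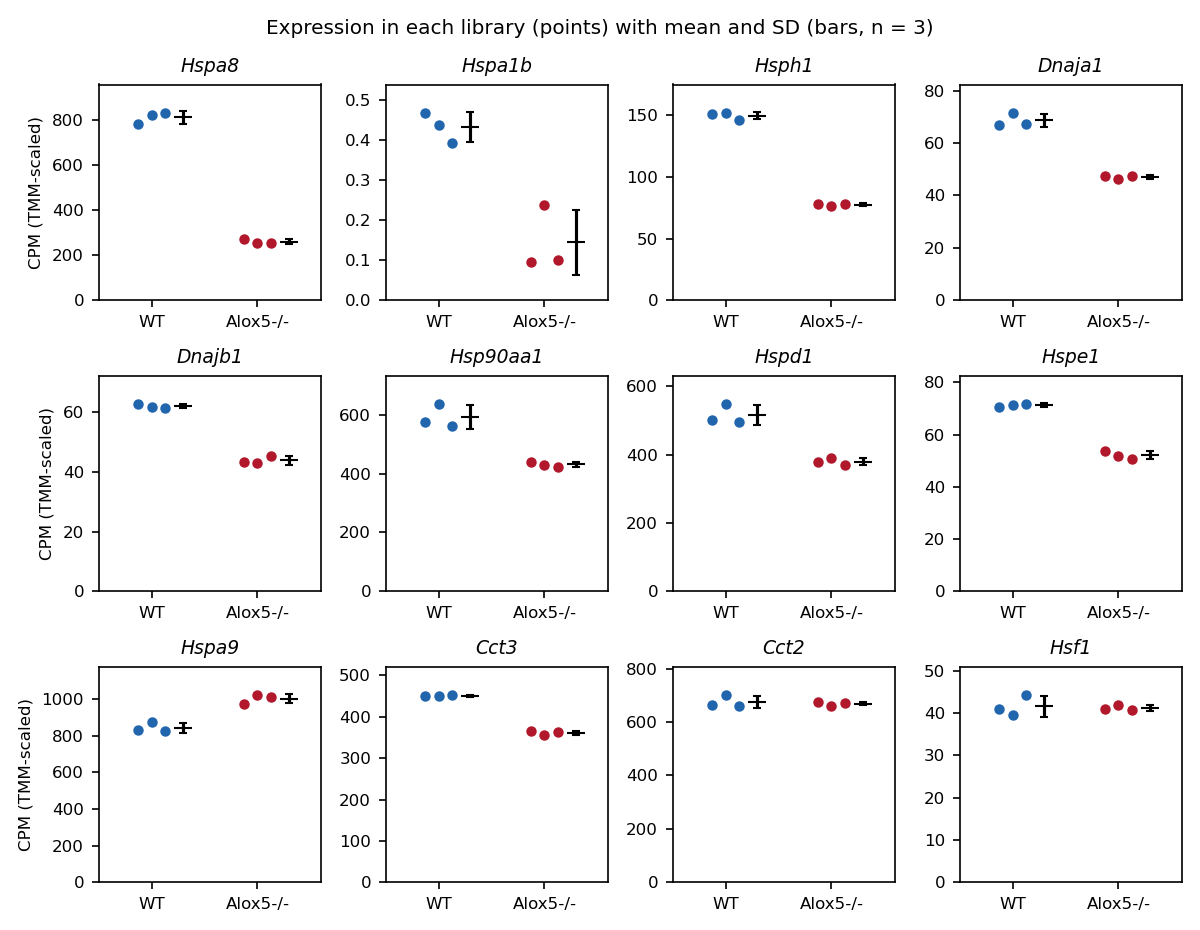
Expression in CPM (y axes, each from 0) of 12 members in the 3 WT libraries (blue) and the 3 Alox5-/- libraries (red), with mean and SD beside them. The groups are separate for the 8 members lower by at least 1.3-fold, for Cct3 and, in the other direction, for Hspa9, and they overlap for Cct2 and Hsf1. Hspa1b, 1 of the 8, passed the filter through its WT libraries alone, so its groups had to differ.

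Heat shock factors themselves did not pass the test. Hsf1 was at 40.8, 41.9 and 40.7 CPM in the 3 Alox5-/- libraries and 40.9, 39.5 and 44.3 CPM in WT, so that the Alox5-/- libraries lay inside the WT range. Its log2 fold change was -0.02 (SE 0.05, edgeR adjusted p = 0.766) with a 95% interval from -0.12 to 0.09. Hsf2, a second family member that can pair with HSF1, was at 19.2, 17.9 and 19.5 CPM against 19.9, 21.3 and 18.9, with an interval from -0.22 to 0.05. HSF1 is controlled chiefly after translation, and its protein and modifications were not measured. Hspb1, the small heat shock protein HSP27, had 1 count in the 6 libraries together and was not tested.

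Mitochondrial chaperones did not move one way: 2 were lower, 2 were higher and Trap1 was not called. Of all tested genes, 27.0% were lower and 26.8% higher. Hspd1 (HSP60) was at 379, 390.3 and 369 CPM in the 3 Alox5-/- libraries and 501, 549 and 495 in WT, a difference of -0.44 in log2 units (edgeR adjusted p = 2.66e-07, SE 0.04). Hspe1 (HSP10) was at 53.9, 51.7 and 50.8 CPM against 70.5, 71.5 and 71.8, a difference of -0.45 in log2 units (edgeR adjusted p = 1.45e-07, SE 0.04). The chamber and its lid were thus lower by about the same factor, 1.36-fold and 1.37-fold. Hspd1 (chr1:55077835-55088243, minus strand) and Hspe1 (chr1:55088132-55091307, plus strand) lie head to head, and their annotated 5′ ends overlap, with start sites 111 bases apart. With the counts of Hspd1-ps3 added, the value for Hspd1 was -0.45. Of the 50-base stretches of Hspe1, 36.1% occur in transcripts of other genes, so its reads may have been lost or split.

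The HSP70 side of the mitochondrion went the other way. Hspa9 (mortalin), which pulls proteins through the inner membrane and folds them in the matrix, was at 973, 1024 and 1008 CPM in the 3 Alox5-/- libraries and 829, 875 and 824 in WT. All Alox5-/- libraries exceeded all WT libraries, with a difference of 0.25 in log2 units (edgeR adjusted p = 1.79e-05, SE 0.03). Dnaja3 (TID1), its DNAJ partner in the matrix, was at 122, 124 and 125 CPM against 111, 108 and 107, a difference of 0.19 in log2 units (edgeR adjusted p = 0.0002, SE 0.03). Trap1, the HSP90 of mitochondria, was at 170.0, 173 and 165 CPM against 166, 166 and 164, with an interval from -0.04 to 0.10.

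The CCT ring is built from 8 different subunits in equal number, and 5 of the 8 messages were lower (62.5%, against 27.0% of all tested genes). Cct3 changed most, with 365, 356 and 362 CPM in Alox5-/- and 449, 450.3 and 454 CPM in WT, a difference of -0.32 in log2 units (edgeR adjusted p = 2.83e-07, SE 0.03). Cct6a fell by 0.21 (edgeR adjusted p = 5.91e-05), Cct8 by 0.18 (edgeR adjusted p = 0.000182) and Tcp1, the first subunit, by 0.18 (edgeR adjusted p = 0.000527). Cct2 was at 674, 662 and 671 CPM against 663, 702 and 659, with overlapping groups and an interval from -0.08 to 0.06. Cct4 and Cct7 were not called either, with log2 fold changes of -0.02 and -0.05. Messages of a complex with fixed stoichiometry thus differed in whether they passed the test, although the differences between subunits were not themselves tested.

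Cct5 was at the threshold, with a fall of 0.08 (edgeR adjusted p = 0.0407). The call was lost in 11 of 15 alternatives, where its adjusted p reached 0.319 (range 0.0301 to 0.319), and leaving out any one library other than Alox5-/- replicate 1 ended it. Without Alox5-/- replicate 2 it was 0.088, without Alox5-/- replicate 3 it was 0.207, and without WT replicates 1, 2 and 3 it was 0.0512, 0.0945 and 0.057. Prefoldin, the jawed holder that passes unfolded actin and tubulin to the ring, was nearly level. Pfdn4 was at 46.1, 44.4 and 47.9 CPM against 47.6, 53.1 and 50.04, so its groups overlapped. Its fall of 0.12 (edgeR adjusted p = 0.0419) was lost in 10 of 15 alternatives, with adjusted p-values from 0.0211 to 0.179. Those included fits without Alox5-/- replicate 1 (0.0902), Alox5-/- replicate 2 (0.159), WT replicate 2 (0.15) and WT replicate 3 (0.0802). Pfdn5 was at 85.4, 83.1 and 85.8 CPM against 80.0, 91.3 and 83.4, and the intervals of Pfdn1, Pfdn2, Pfdn5 and Vbp1 all lay within -0.17 and 0.10.

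Per kilobase of exon, levels can be ordered roughly between genes. Hsp90ab1 was highest in both groups, at 1240 CPM per kilobase in Alox5-/- and 1522 in WT, and Cct2 was next at 262 and 264. Hspa8 dropped in this order from rank 7 of 48 in WT (189 ± 6.5 CPM per kilobase) to rank 19 in Alox5-/- (60.4 ± 2.60; SD, n = 3 each), while Hspa9 went from rank 4 (196) to rank 3 (232). Subunits of the CCT ring spanned 70.8 (Cct3) to 264 (Cct2) CPM per kilobase in WT, a ratio of 3.73, and those of prefoldin 19.9 (Pfdn4) to 60.9 (Pfdn5), a ratio of 3.05. These orders depend on reads lost to copies and on the lengths used. Of their 50-base stretches, 73.2% for Hspa8, 58.5% for Hsp90aa1 and 44.8% for Hspd1 occur in transcripts of other genes. Levels of these genes may therefore be set low. Merged exons of all isoforms span 6370 bases for Cct3, 4301 for Hspa8 and 4310 for Hspa9, while the longest coding transcripts span 1977, 2394 and 3049 bases, so that levels of Cct3 and Hspa8 are set low. Hsf1 and Hsf2 were among the lowest, at 5.86 and 2.08 CPM per kilobase in WT. Their merged exons span 7099 and 9606 bases and their longest coding transcripts 2104 and 2604, so these levels are set low too. The same holds for Pfdn4, at 2520 and 1041 bases, so the low end of prefoldin depends on the length used.

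**Figure D4:**
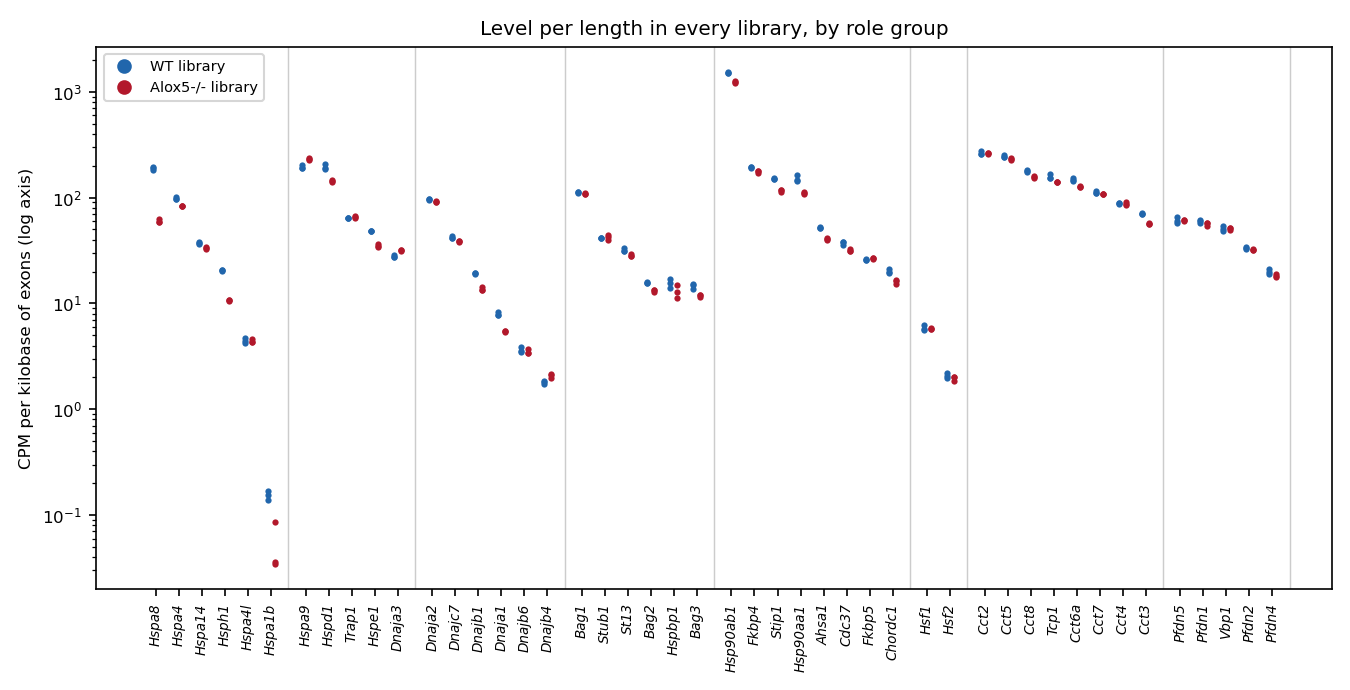
Level per length (y axis, CPM per kilobase of exons, log axis) of the tested members in each WT library (blue) and each Alox5-/- library (red), ordered within role groups by WT level. Hsp90ab1 is highest at 1522 in WT, and the red points of Hspa8 lie at 60.4 on average, below its blue points at 189.

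Promoter windows of 40 members were matched by symbol in the RefSeq table. Hspa8, Hsp90aa1, Hsp90ab1, Hspa9, Hsf1, Cct4, Pfdn1 and St13 had no window there. Inverted pairs, GAANNTTC or TTCNNGAA, which read the same on both strands, occurred in 17 of the 40 members (42.5%), against 16.97% of all 27025 genes with a window. A run of at least 3 alternating units occurred in 5 members (12.5%), Chordc1, Hspd1, Hspe1, Hsph1 and Dnajb6, against 0.6623% of all genes. Runs of at least 4 units occurred in Chordc1, Hspd1 and Hspe1, and in 8 genes of the 27025. The run of Hspd1 and that of Hspe1 are the same bases. Genes with several start sites have several windows, and any of them was counted. For Hspd1, Dnaja1, Dnajb4, Cct2 and Cct5, another listed window of the same gene held no pair.

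Pairs were found in 11 of the 15 HSF1-induced members with a window (73.33%) and in 6 of the 25 others (24.0%). The counts by run that follow stand beside 27.0% of all tested genes called lower. Among tested members with at least 3 units, 4 of 5 were lower, with a median log2 fold change of -0.44. Hspd1 and Hspe1 share the same run, so they are not separate cases. Dnajb6 was the exception to the lower calls, although its window printed above holds 3 units. Of its 50-base stretches, 35.8% occur in transcripts of other genes, and no pooled fit was made for it. With a run of only 2 units, 7 of 10 tested members were lower, Hspa1b among them, and Dnajb4 was higher (median -0.18). Hspa1b passed the filter through its WT libraries alone and had to differ, so that count and median include a case fixed in advance. With no pair 12 of 23 were lower and Dnaja3 was higher (median -0.11). Dnajb1, with a log2 fold change of -0.50, held no pair in any of its listed windows, so a match in these letters did not divide the members cleanly. The CCAAT box, searched on both strands, occurred in 19 of the 40 members (47.5%), against 41.06% of all genes. A match is a string of letters, and binding of HSF1 was not measured.

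**Figure D5:**
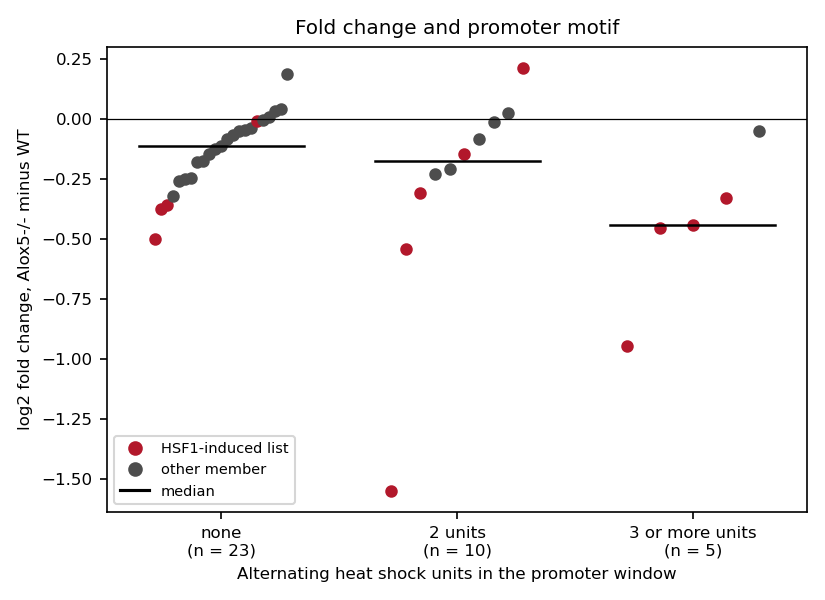
Log2 fold change (y axis, Alox5-/- minus WT) of the 38 tested members with a promoter window, by the longest run of alternating units in it; lines are medians and red points are the HSF1-induced list. Medians were -0.11 with no pair, -0.18 with 2 units and -0.44 with 3 or more, and the highest point of the last group is Dnajb6. In that group Hspd1 and Hspe1 share the same run. Hspa1b, in the group with 2 units, passed the filter through its WT libraries alone and had to differ.

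The wider chaperone network, 71 further genes of the DNAJ, HSP90, BAG, small heat shock, mitochondrial protease, tubulin cofactor and R2TP families, went both ways but leaned lower. Of 64 tested, 26 were lower (40.6%, against 27.0% of all tested genes), 13 were higher and 25 were not called. Of all tested genes, 26.8% were higher. In all, 60.9% of the list was called, against 53.8% of all genes, with a median log2 fold change of -0.05. Hspa2, an HSP70 best known from the testis, fell by 0.85 (edgeR adjusted p = 7.36e-08), and Tomm34, an HSP90 and HSP70 adaptor for mitochondrial import, by 0.45 (edgeR adjusted p = 5.03e-07). Dnajb11 and Dnajc3, which work in the endoplasmic reticulum, fell by 0.37 and 0.31, Ruvbl1, an ATPase of the R2TP complex, by 0.37, and Dnajc11, of the mitochondrial outer membrane, by 0.30. Against that direction, Dnajb14, a DNAJ of the endoplasmic reticulum membrane, rose by 0.62 (edgeR adjusted p = 1.43e-07). Cryab, a small heat shock protein that is also known as an HSF1 target, was 4.14-fold higher at 2.13 ± 0.0963 against 0.510 ± 0.0668 CPM (SD, n = 3 each; edgeR adjusted p = 4.19e-07), at a low level.

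Immediate early genes, which respond to cell handling within minutes, are given beside the heat shock genes. Of 17 tested, 12 were higher in Alox5-/- cells (26.8% of all tested genes were higher and 27.0% lower), Btg2 and Egr2 were lower and 3 were not called, and their sum was 655 to 776 CPM against 534 to 581 CPM in WT. The 4 with the smallest p were Klf6 (log2 fold change 0.74), Egr1 (2.46), Jun (0.93) and Ier3 (0.64). Alox5-/- replicate 2 was the highest library for Egr1, at 5.68 CPM beside 2.76 and 3.80, and for Jun. Hspa8 was at 253 CPM in that library beside 273 and 254, and over the members its median absolute deviation from the group mean was the largest of the 3, at 0.0264 beside 0.0211 and 0.0190 in log2 units. Without it 25 members were lower and 3 higher. The part of handling in the chaperone values was not tested.

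Markers of other cells were low or mixed, and those of maturation were more often lower than higher. The erythroid list (9 genes, 1 tested, none called) summed to 0.738 to 0.786 CPM in Alox5-/- and 0.673 to 0.865 in WT, with Hba-a2 and Slc4a1 at 0. The list for B, T and NK cells (12 genes, 1 tested, none called) summed to 1.24 to 1.73 and 0.976 to 1.54 CPM, with Cd3e, Cd3g and Ncr1 at 0. Of the 9 macrophage genes 3 were tested, 2 higher and 1 lower, with sums of 96.9 to 100.4 and 78.5 to 83.7 CPM and Marco at 0. Of the 13 genes of granulocyte and monocyte maturation 12 were tested, 8 lower and 2 higher, with sums of 5207 to 5304 and 4970 to 5314 CPM. For mast cells and basophils (6 genes, 5 tested) 2 were lower and 1 higher, with sums of 112 to 117 and 175 to 187 CPM and Fcer1a at 0. Of 5 megakaryocyte genes 2 were tested and 1 was lower (sums of 2.52 to 3.34 and 5.18 to 5.61 CPM), and of 8 stromal and endothelial genes 3 were tested and 2 were higher (207 to 212 and 184 to 187 CPM). Nearly all of the stromal and endothelial sum was Pecam1, which averaged 196 CPM in Alox5-/- and 174 CPM in WT. Col1a2, Cxcl12, Cdh5 and Kdr had at most 2 counts in any library. The stem and progenitor list (9 genes, 6 tested) had 3 higher and 1 lower, with sums of 827 to 853 and 728 to 761 CPM. Most of that sum came from Hoxa9 (307 CPM in Alox5-/- against 244 in WT), Cd34 (227 against 177), Meis1 (147 against 149, not called) and Kit (136 against 160). Hlf, Procr and Mecom had at most 13 counts in any library and were not tested. All these counts by list stand beside 26.8% of all tested genes higher and 27.0% lower. The maturation list thus leaned lower by count, with 66.7% of tested genes lower, against 27.0% of all tested genes, and a median of -0.68. That share includes Camp, which passed the filter on low counts through its WT libraries alone and so had to differ. Camp had raw counts of 10, 8 and 8 in Alox5-/- and 26, 15 and 36 in WT. The most abundant gene of the list, Ctsg, was higher (log2 fold change 0.28), while Mpo was lower (-1.59), and the sums overlapped. The part of these cell states in the chaperone values was not tested.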

How the data were processed

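Poly-A RNA of 3 Alox5-/- and 3 WT libraries was analysed from the read counts per gene that the authors deposited. Per the labels' protocols, cells were sorted into a lysis reagent and cDNA was made with the SMARTer kit; per the submitters' processing notes, HTSeq counts on mm10 were made and DESeq2 was used. The aligner, versions, annotation release and strand setting were not given in the sources used here. Rows that name no gene were left out, leaving 60.0 to 60.9% of reads, and 27 symbols turned into dates were restored. Counts were fitted in R 4.3.3 with edgeR 4.0.16 (TMM, default filter, quasi-likelihood F-test, no covariate, all 13705 genes, Benjamini-Hochberg, threshold 0.05), tested on simulated data. Intervals are 95%. Alternatives used DESeq2 1.42.0, limma-voom (limma 3.58.1), other scalings and filters, a robust fit, a replicate block and each library left out; adding counts of near-identical genes was chosen after seeing the data. Lengths and shared 50-base stretches came from GENCODE vM21 (same build), promoters from RefSeq.

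The members and lists were chosen with earlier results of these data known. Library values are given for called members that differ at least 1.3-fold, for the most and least changed member of each role group and for a few fixed genes; up to 8 called genes of the wider list and 4 of the handling list are named by smallest p. Values of Dnajb4, Hspa9, Dnaja3, Hspbp1, Ctsg, Mpo, Kit and Ly6a were added after their values were seen. Of the members, 13 share at least 5% of their 50-base stretches with other genes and 24 share none, so reads of the former may have been lost or split. Counts of every pair of libraries differed by more than sampling noise.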

Additional observations from a re-analysis of the deposited data

How the results depend on the processing

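Called members kept their direction in every one of the 15 alternatives, and no count of calls moved by over 1.5 times. Members called lower numbered 23 (total gene counts) to 27 and members called higher 3, or 4 with total gene counts. All called genes numbered between 6407 (DESeq2) and 7622 (no filter), and 6583 to 7251 with 1 library left out. Calls were lost for Dnajc7, Hspbp1, Cct5 and Pfdn4 only, as given above, and gained for Fkbp5. Scaling by total gene counts moved the median of all genes to 0.04 on the log2 scale. Hspa1b has no value under the stricter filter of at least 1 CPM in all 6 libraries. Replicate numbers did not pair the libraries: deviations of same-numbered libraries correlated at -0.04, -0.13 and -0.01, and no library correlated best with its own number. With the replicate block 7029 genes and 28 members were called, 25 lower and 3 higher, and Cct5 (edgeR adjusted p = 0.0656) and Pfdn4 (0.0664) were lost. Depth limits Hspa1a, Hspa1b and Hspb1, whose counts are near the floor of 3. With 3 libraries a group, outlying libraries of single genes were not searched for.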

Other observations

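The 48 members took 1.46 to 1.48% of the gene counts in the Alox5-/- libraries and 1.65 to 1.71% in WT. Within a group the members varied little between libraries: the median absolute deviation from the group mean was 0.02 to 0.04 on the log2 scale, against 0.04 to 0.05 over all tested genes. WT replicate 2 had the widest spread, 0.04, with a median deviation of 0.02 over the members, and it was the highest WT library for Hsp90aa1, Hspd1 and Dnaja1.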
